A study of Mus musculus with 60 samples.

Results

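The livers of 5 female mice kept for 40 weeks on HF/HS, a diet with much fat and much sucrose, were compared with those of 5 female mice fed it for 20 weeks, which are 10 of the 60 libraries of the series. They were chosen by the sex, diet and duration in the column names of the gene count table, not by any measured value. All mice were of CC042/GeniUnc, an inbred Collaborative Cross strain, and the labels name no further allele or agent. The HF/HS diet drew 42% of its energy from milkfat rich in palmitic acid, held 0.2% cholesterol and was high in sucrose. The control diet had matched ingredients with less fat and less sucrose. Each library came from the total RNA of 1 frozen liver and carries its own animal number, by which the animals are called here: 292, 301, 302, 421 and 422 at 20 weeks, and 471, 473, 481, 482 and 483 at 40 weeks. Nothing says whether the animals shared cages, litters or collection days, and their ages are not given here. Time on the diet and age therefore cannot be told apart in this comparison. Female mice on the control diet for 20 and 40 weeks, and male mice on the HF/HS diet for the same times, 5 in each group, are set beside it.

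A fatty liver on a Western-type diet can go on to inflammation and fibrosis. Macrophages that take up lipid and dead cells switch on a lipid-handling program with Trem2, Gpnmb and Spp1, and they gather around fat-laden hepatocytes. Stellate cells, the vitamin A storing pericytes of the liver, lay down fibrillar collagen when activated, and cells of bile duct type multiply in injured livers. Many hepatocyte genes for steroid and drug metabolism are set by sex through the rhythm of growth hormone, and their expression can be lost in diseased liver.

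Total counts ran from 11868172 to 20942463 in the 10 libraries and from 10923963 to 20942463 in the series. The first principal component of the 10 libraries held 42.6% of the variance and separated the durations, with animals 302 and 473 nearest to the other group. Pairwise correlations of log values were 0.977 to 0.9884 at 20 weeks and 0.9866 to 0.9947 at 40 weeks. Hepatocyte markers (12 of 12 tested, Alb, Ttr and Cyp2e1 among them) summed to 35497 to 42235 CPM (counts scaled to library size) at 20 weeks and 32555 to 39671 CPM at 40 weeks, so the defining markers of the labelled tissue were present. Pancreas genes (14 of 15 tested) were uneven: they summed to between 7.81 and 158 CPM at 20 weeks, high in animals 421 and 422, and to between 3.13 and 16.1 CPM at 40 weeks. Of the called genes described below, Agpat2, Ccl3, Ccl7, Cideb, Cry2, Cyp2b10, Cyp3a11, Fabp1, Klrk1, Nr0b2, Prom1, Slc30a10, Spink1, Srebf1, Vsig4 and the hepatocyte marker Ttr lost their call without animals 421 and 422.

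Genes of macrophages, of the extracellular matrix and of the bile duct rose between 20 and 40 weeks on the HF/HS diet, while sulfotransferases and several cytochromes P450 fell. In edgeR's quasi-likelihood test over 14180 genes, 2180 passed an adjusted p of 0.05, which is 15.4% of the genes tested. Of these 1311 were higher (9.25%) and 869 lower (6.13%) at 40 weeks. Changes of 2-fold or more were mostly increases, 433 against 79. Over calls of any size the balance of directions moved with the scaling: 60.1% of calls were higher, 48.6% with the small non-coding RNAs taken out ahead of scaling, and 46.4 to 53.3% with 1 of the 10 libraries left out. The CPM ranges of the groups did not overlap for 1977 genes, 13.9% of those tested. Animals 421 and 422 left out together lowered the count of calls to 1247, and animals 292, 301 and 302 left out together to 1002.

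**Figure D1:**
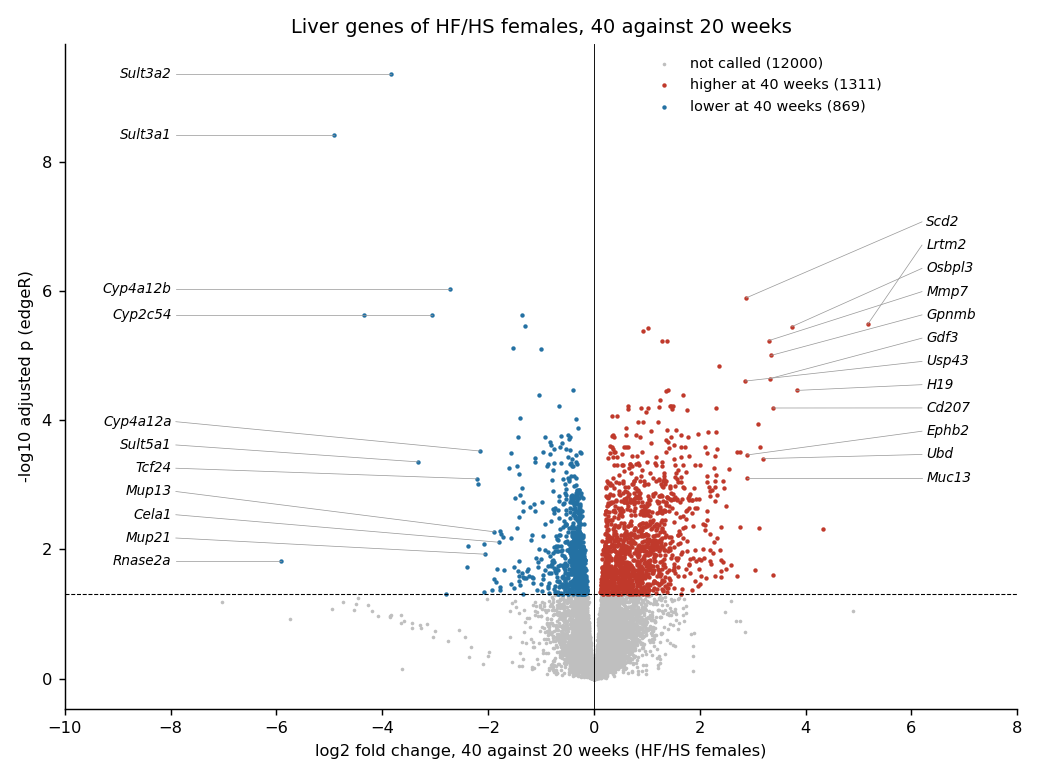
Each point is 1 of the 14180 genes tested, by its log2 fold change at 40 against 20 weeks in HF/HS females (horizontal) and the −log10 of its adjusted p (vertical), with the dashed line at 0.05. The 1311 higher genes (red) reach larger changes than most of the 869 lower ones (blue), and Sult3a2 and Sult3a1 have the smallest p-values.

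Among the 12 highest changes, Gpnmb and Gdf3 are genes of lipid-laden macrophages, Cd207 (langerin) is a lectin of antigen-presenting cells, and Mmp7 (matrilysin) is a matrix protease of epithelia. Gpnmb encodes a lysosomal membrane glycoprotein and lies at 6:49036546-49070929 in mm10 (GENCODE M21). Its CPM was 1.09, 2.97, 4.94, 2.18 and 4.01 in the 20-week animals and 21.8, 15.8, 28.3, 51.3 and 41.8 in the 40-week animals. The lowest 40-week animal was thus above every 20-week animal. The log2 change was 3.34 ± 0.50 (SE from the fit of all 60 libraries, n = 5 and 5, adjusted p = 1e-05). Gdf3, a ligand of the TGF-beta family, was at 0.168, 0.233, 0.427, 0 and 0.376 CPM at 20 weeks and at 2.1, 2.27, 2.97, 3.44 and 2.15 CPM at 40 weeks (log2 change 3.33 ± 0.51). Cd207 was at 0, 0.291, 0.366, 0.218 and 0.439 CPM and then at 2.73, 1.46, 2.92, 3.77 and 3.93 CPM (3.38 ± 0.56). Mmp7, at 9:7692090-7699585, had 0.168, 0.233, 0.122, 0.218 and 0.439 CPM at 20 weeks and 2.91, 2, 2.21, 3.58 and 1.47 CPM at 40 weeks (3.30 ± 0.47, adjusted p = 5.9e-06). The 12 highest and 12 lowest genes were picked among genes without overlap between the groups. Its absence in these 4 genes therefore follows from the choice. Gdf3, Cd207 and Mmp7 were below 0.5 CPM in every 20-week animal.

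The promoters of these genes are shown because the letters of the AP-1 motif, the site of Fos and Jun factors, recur in them. Windows from 250 bases before to 50 bases after the start of the gene were available from RefSeq (GRCm38.p6) for 8 of the 12 highest genes, 11 windows in all. TGAGTCA, searched on both strands, was in 5 of the 11 windows (45.5%), those of Gpnmb, Mmp7, Cd207 and Muc13, the last with 2 windows. The same letters were in 4.02% of 13992 windows of 11046 genes tested, in 5.2% of all 32851 windows, and in 0 of 6 windows matched to the 12 lowest genes. They were also in 2 of 17 windows of male-biased liver genes (11.8%) and in 3 of 26 windows of female-biased ones (11.5%). Lipid-associated macrophage genes, a list that holds Gpnmb, had them in 3 of 16 windows (18.8%) and matrix genes in 3 of 21 (14.3%). General macrophage genes had them in 1 of 10 windows (10%) and bile duct genes in 1 of 11 (9.09%). Motifs of STAT5 (TTCNNNGAA), the E-box (CACGTG) and PU.1 (GAGGAAGT) were searched in the same way, and each was in 1 of the 11 windows (9.09%). Over the windows of genes tested their shares were 7.07%, 9.62% and 3.08%. The motifs were picked after the genes were known, so these shares are a description. In Gpnmb the letters lie after the start that RefSeq gives, which is not the GENCODE start printed above, and are not printed. The 250 bases before the start are given for the other 3 genes, 5′ to 3′ on the strand of the gene, with the motif in capitals.
Mmp7, chr9:7691840-7692089, plus strand: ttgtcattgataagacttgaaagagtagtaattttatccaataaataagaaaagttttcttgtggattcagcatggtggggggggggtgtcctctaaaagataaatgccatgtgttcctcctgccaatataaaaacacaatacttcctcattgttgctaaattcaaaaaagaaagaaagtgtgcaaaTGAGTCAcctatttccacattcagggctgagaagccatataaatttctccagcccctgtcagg
Cd207, chr6:83677858-83678107, minus strand: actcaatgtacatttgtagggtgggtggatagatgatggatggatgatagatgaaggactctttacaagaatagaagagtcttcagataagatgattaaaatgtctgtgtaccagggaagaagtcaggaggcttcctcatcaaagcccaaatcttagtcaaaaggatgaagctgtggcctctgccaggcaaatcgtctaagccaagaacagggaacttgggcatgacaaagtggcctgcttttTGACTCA
Muc13, chr16:33793787-33794036, plus strand: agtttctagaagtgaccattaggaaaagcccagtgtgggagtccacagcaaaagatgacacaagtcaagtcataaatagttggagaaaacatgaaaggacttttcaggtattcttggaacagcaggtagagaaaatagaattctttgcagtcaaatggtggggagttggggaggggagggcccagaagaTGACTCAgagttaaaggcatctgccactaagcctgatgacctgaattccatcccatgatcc

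All 15 genes of a general macrophage list rose, against 9.25% of all genes tested, with a median log2 change of 1.23 beside −0.0013 over all genes. In bulk tissue, more cells of a type and more RNA per cell cannot be told apart. The summed level of the list was 407 to 567 CPM at 20 weeks and 829 to 1109 CPM at 40 weeks. Lyz2, the lysozyme of macrophages, was at 42.2, 38.4, 49.9, 35.9 and 49.0 CPM at 20 weeks and at 114, 86.2, 117, 155 and 130.4 CPM at 40 weeks (1.48 ± 0.25). Fcgr1, a high-affinity IgG receptor, rose from 1.78 ± 0.428 to 5.07 ± 0.913 CPM (SD, n = 5 each), and Ctss, a lysosomal protease of antigen processing, by 1.32 ± 0.31. Kupffer cells, the resident macrophages of the liver, were marked by 11 genes with a median change of 0.51, of which 9 were positive. Of these 11 markers edgeR called 1, which is 9.09% and close to the 9.25% of all genes. DESeq2 called 2 higher, limma voom 4 higher and 1 lower, and 6 were higher at an unadjusted p under 0.05. The edgeR call was Vsig4, a complement receptor (0.78 ± 0.28, adjusted p = 0.0471), and was lost with any 1 of the 10 libraries left out. Clec4f, the lectin that defines Kupffer cells, changed by 0.51 (adjusted p = 0.113) and Timd4 by 0.04. With animals 292, 301 and 302 left out together, 3 of the 15 macrophage genes were called, and 11 were without animals 421 and 422.

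The lipid-associated macrophage list had the highest median of the 18 cell type lists, 1.46. Of its 15 genes 11 were higher (73.3%, against 9.25% of all genes tested) and 1 lower. The gene that fell was Apoe, a lipid carrier made mainly by hepatocytes, named here because it was the only one (−0.25 ± 0.06, adjusted p = 0.00402). Trem2, the lipid-sensing receptor of these cells, was at 0.758, 0.641, 1.22, 0.873 and 0.627 CPM at 20 weeks and at 3.18, 2.16, 3.95, 6.29 and 4.79 CPM at 40 weeks (2.29 ± 0.44, adjusted p = 0.000355). Mmp12, macrophage elastase, rose from 6.99, 7.34, 13.8, 5.6 and 13.3 CPM to 31.8, 25.8, 40.6, 54.2 and 55.4 CPM (2.13 ± 0.44). Spp1 (osteopontin), a secreted matrix protein, rose from 20.9, 17.7, 27.5, 16.6 and 16.5 CPM to 58.2, 46.4, 54.4, 56.2 and 58.1 CPM (1.46 ± 0.26, adjusted p = 0.000182). The groups did not overlap for any of the 3 genes, and animal 473 was the lowest 40-week animal in each. Lpl, lipoprotein lipase, rose from 28.8 ± 8.68 to 97.2 ± 29.8 CPM (SD, n = 5 each), and Clec7a (dectin-1) by 1.77 ± 0.32 on the log2 scale. Osbpl3, an oxysterol-binding protein at 6:50293330-50456201, rose from 3.54, 1.92, 8.66, 3.27 and 4.83 CPM to 65.1, 23.5, 66.8, 84.6 and 59.7 CPM (3.74 ± 0.52, adjusted p = 3.58e-06). The list had 10 to 13 higher members under every alternative tried.

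Several markers of blood monocytes and of antigen presentation were also higher. Of 9 monocyte genes tested 5 were called higher (55.6%, against 9.25% of all genes tested), and 7 had a positive change. Chil3 and Fcnb, also on that list of 11, had no count in the 10 libraries. Ccr2, the chemokine receptor that brings monocytes out of the marrow, rose from 6.06, 5.01, 9.33, 2.69 and 6.15 CPM to 19.1, 13, 17.7, 21.1 and 21.5 CPM (1.65 ± 0.30), and Cx3cr1 rose from 2.19 to 8.73 CPM in the mean (1.97 ± 0.35). Of 14 dendritic cell genes 5 rose (35.7%, against 9.25% of all genes), and all 5 serve class II antigen presentation. H2-Aa changed by 1.32 ± 0.27, H2-Eb1 by 1.24 ± 0.26 and H2-Ab1 by 1.13 ± 0.24 on the log2 scale. These class II genes are near relatives that can share reads. The edgeR test called none of 7 neutrophil genes (4 at an unadjusted p under 0.05, 1 by DESeq2 and 4 by limma voom). It called none of 9 B and plasma cell genes (2 unadjusted, 1 by DESeq2, 2 by limma voom). Of 9 T and natural killer cell genes it called 1 (11.1%, against 9.25% of all genes), Klrk1 (0.92 ± 0.32, adjusted p = 0.0431). That call was lost in 6 of 10 fits with a library left out. Of 22 chemokine and cytokine genes tested 10 rose (45.5%, against 9.25% of all genes) and none fell, with a median of 0.97. Ccl6 rose from 8.25, 8.69, 8.48, 8.65 and 11.3 CPM to 26.4, 22.2, 24.6, 34.2 and 30.7 CPM (adjusted p = 0.00521), and Ccl3 from 0.209 to 0.667 CPM (1.59 ± 0.46). Ccl7 (1.85, adjusted p = 0.0419) lost its call in 8 of 10 fits with a library left out, and 3 of the 22 genes stayed called without animals 421 and 422.

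**Figure D2:**
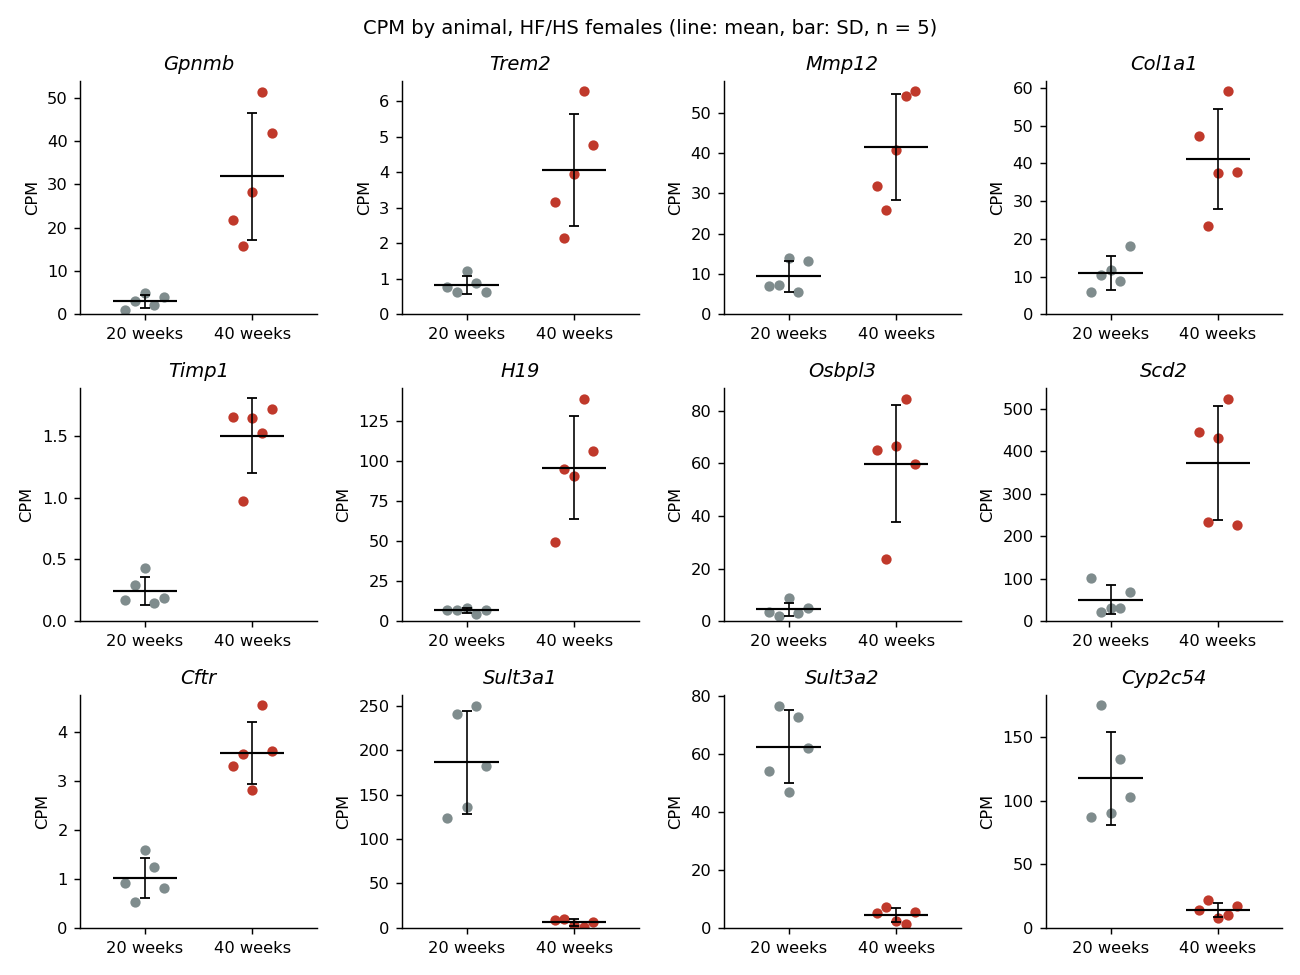
CPM of 12 genes in each of the 5 20-week (grey) and 5 40-week (red) HF/HS females, with the group mean (line) and SD (bar). The 40-week points lie above all 20-week points for Gpnmb, Trem2, Mmp12, Col1a1, Timp1, H19, Osbpl3, Scd2 and Cftr, and below them for Sult3a1, Sult3a2 and Cyp2c54. Gpnmb, H19, Osbpl3, Scd2, Sult3a1, Sult3a2 and Cyp2c54 were picked among genes without overlap.

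Matrix genes rose together: 23 of 32 were higher (71.9%, against 9.25% of all genes tested) and 1 was lower, with a median log2 change of 0.68. Col1a1, the main chain of fibrillar collagen type I, at 11:94936224-94953042, was at 5.89, 10.3, 11.7, 8.95 and 18.2 CPM at 20 weeks and at 47.2, 23.3, 37.6, 59.1 and 37.8 CPM at 40 weeks (1.88 ± 0.40, adjusted p = 0.00114). Col3a1, of fibrillar type III, was at 43.7, 42.3, 49.5, 38.9 and 69.3 CPM and then at 149, 79.8, 118, 154 and 127 CPM (1.36 ± 0.31). Timp1, an inhibitor of matrix proteases and a common fibrosis marker, went from 0.168, 0.291, 0.427, 0.145 and 0.188 CPM to 1.66, 0.972, 1.65, 1.52 and 1.72 CPM (2.55 ± 0.51). The groups were apart for all 3 genes, with animals 422 and 473 nearest to each other for Col1a1 and Col3a1. The collagenase Mmp13 also rose, by 1.73 ± 0.35. Acta2, the smooth muscle actin of activated stellate cells, changed by 0.09 (adjusted p = 0.804). The member that fell was Col5a2, named here because it was the only one (−0.75 ± 0.26, adjusted p = 0.0412, groups overlapping). Of 14 stellate cell and fibroblast genes 8 rose (57.1%, against 9.25% of all genes), 5 of them matrix genes already counted, and 1 fell (Ecm1). The summed level of the 14 genes went from between 802 and 989.7 CPM to between 1143 and 1266 CPM. Pdgfra, a growth factor receptor of fibroblasts, rose by 0.79 ± 0.17. Mmp12 and Tgfb1 stand in this list and in the macrophage or cytokine list as well. The number of matrix genes higher fell to 16 at the lowest with 1 library left out, to 18 without animals 421 and 422 and to 7 without 292, 301 and 302.

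Bile duct markers rose in 8 of 13 cases (61.5%, against 9.25% of all genes tested) and none fell, with a median of 1.13. Spp1 is also in the lipid-associated macrophage list, and Epcam in the fetal list. Cftr, the chloride channel of the duct lining, was at 0.926, 0.525, 1.59, 1.24 and 0.815 CPM at 20 weeks and at 3.31, 3.56, 2.82, 4.57 and 3.62 CPM at 40 weeks (1.80 ± 0.42). Krt7, a keratin of duct cells, went from 0.421, 0.466, 0.366, 0.582 and 0.69 CPM to 1.39, 1.46, 1.41, 1.85 and 1.04 CPM (1.48 ± 0.34), and the tight junction gene Cldn7 rose by 1.73 ± 0.40. The 40-week animals were above the 20-week animals for all 3. Other duct genes did not pass: Krt19 changed by 0.72 (adjusted p = 0.149) and the transcription factor Sox9 by 0.43 (adjusted p = 0.202). Muc13, an epithelial mucin, was at 3.54, 1.69, 3.23, 1.67 and 4.26 CPM and then at 29.2, 4.86, 26.5, 36.7 and 10.2 CPM (2.90 ± 0.59), wide apart among the 40-week animals. The duct list had 5 higher members without animals 421 and 422 and 1 without 292, 301 and 302.

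Genes of fetal liver and liver tumours rose in 10 of 20 cases (50%, against 9.25% of all genes tested) with none lower (median 1.31). H19, an imprinted non-coding RNA abundant before birth, at 7:142575529-142578143, was at 7.15, 6.65, 8.3, 4.22 and 7.21 CPM at 20 weeks and at 49.2, 94.9, 90.4, 139 and 106 CPM at 40 weeks (3.83 ± 0.60, adjusted p = 3.48e-05). Scd2, the stearoyl-CoA desaturase typical of young and extrahepatic tissue, at 19:44293674-44306864, went from 100.3, 21.0, 32.0, 30.5 and 69.5 CPM to 444, 233, 430.1, 524 and 227 CPM (2.88 ± 0.37, adjusted p = 1.28e-06). Sox4, a developmental transcription factor, was at 10.4, 6.99, 12, 5.31 and 10.1 CPM and then at 21.6, 18.8, 26.6, 37.5 and 36.3 CPM (1.65 ± 0.29). All 3 kept the groups apart, which for H19 and Scd2 follows from how the 12 highest genes were picked. Afp, fetal albumin's relative, was low throughout and changed by 0.41 (adjusted p = 0.439), and Gpc3 by −0.08. Spink1 (adjusted p = 0.035) lost its call in 7 of 10 fits with a library left out. Others among the 12 highest were Lrtm2, a leucine-rich repeat membrane protein, with 6 counts over the 20-week animals and 279 over the 40-week animals (5.18 ± 0.71), the ubiquitin-like modifier Ubd (3.20 ± 0.61), the receptor kinase Ephb2 (2.89 ± 0.55) and the deubiquitinase Usp43 (2.86 ± 0.44).

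**Figure D3:**
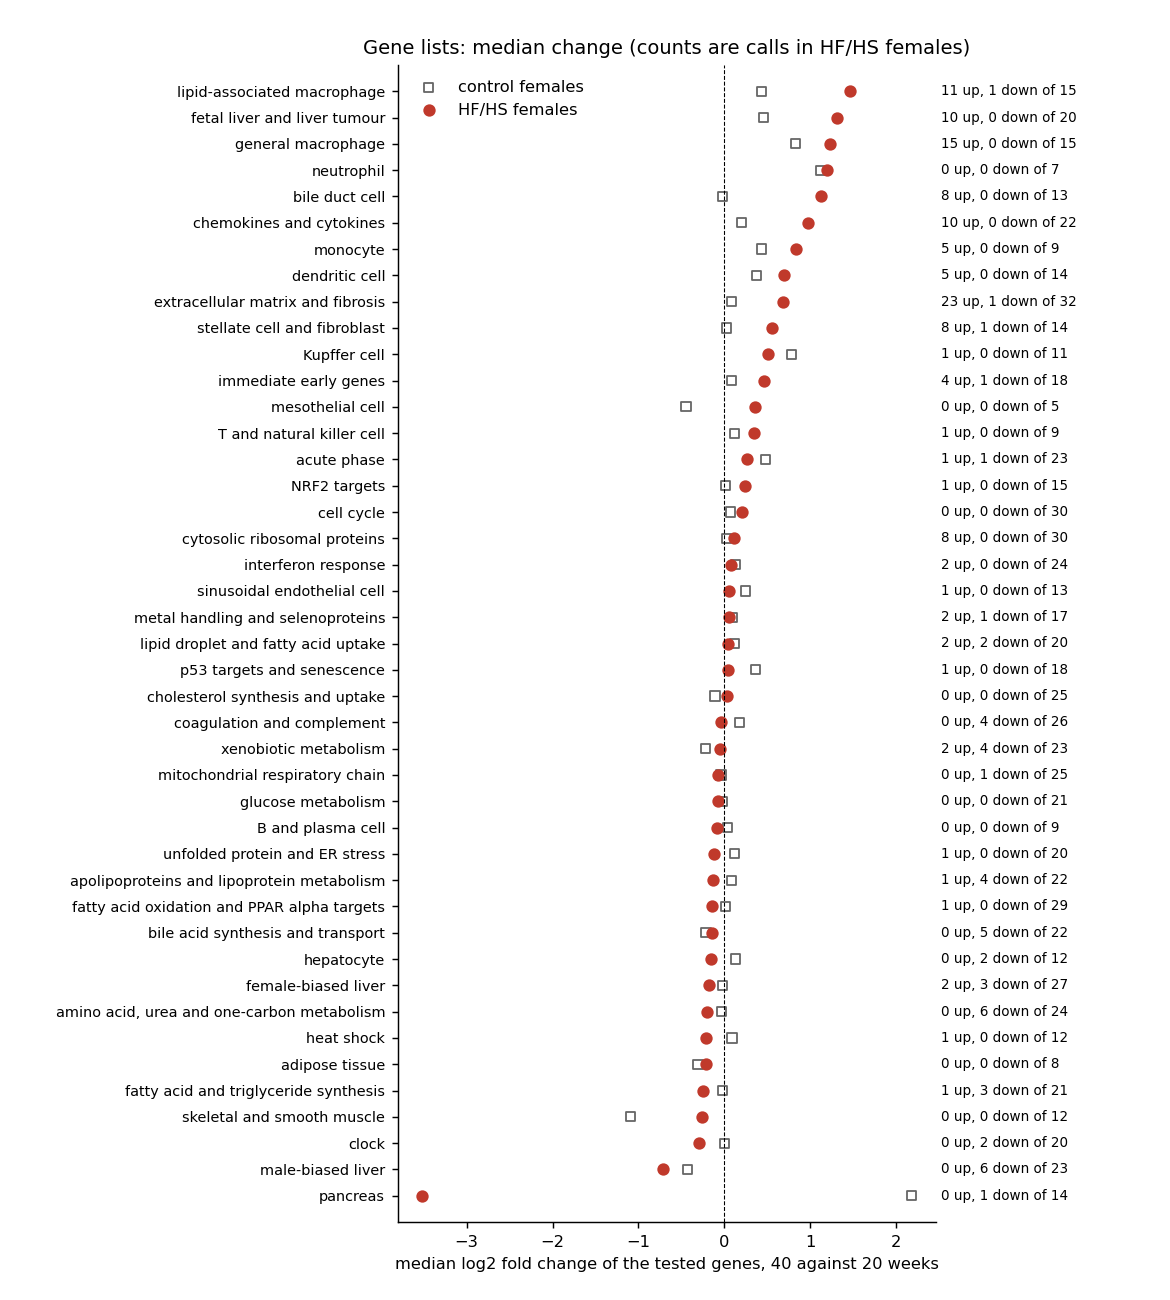
Median log2 fold change at 40 against 20 weeks for gene lists with 5 or more tested genes in HF/HS females (red points) and control females (open squares), with the number of genes called in HF/HS females at the right. The lipid-associated macrophage (1.46), fetal liver (1.31) and general macrophage (1.23) lists have the highest medians in HF/HS females, and the pancreas list stands lowest, at −3.52.

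On the falling side, the sulfotransferases Sult3a1 and Sult3a2, female-biased enzymes that conjugate steroids and drugs, fell with the smallest p-values of all genes tested. Sult3a1, at 10:33857721-33879532, was at 123, 240.2, 136, 249.98 and 182 CPM at 20 weeks and at 9.18, 9.83, 3.30, 1.46 and 6.75 CPM at 40 weeks (−4.91 ± 0.51, adjusted p = 3.89e-09). Sult3a2, its neighbour at 10:33766424-33786704, was at 54, 76.6, 46.7, 72.8 and 61.8 CPM and then at 5.01, 7.29, 2.4, 1.39 and 5.52 CPM (−3.84 ± 0.36, adjusted p = 4.44e-10). The highest 40-week animal lay far below the lowest 20-week animal for both, although reads of near-identical copies may be split between them. Cyp2c54, a cytochrome P450 of fatty acid epoxidation, went from 87.5, 175, 90.2, 133 and 103 CPM to 14.1, 21.6, 7.44, 10.3 and 17.0 CPM (−3.06 ± 0.41). Rnase2a, an eosinophil-type ribonuclease, had 184 counts over the 20-week animals and 3 over the 40-week animals, a ratio of 76.3 (95% interval 25.7 to 374, counting error only).

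Of 23 male-biased liver genes edgeR called 6 lower and 0 higher, against 6.13% of all genes lower, with a median of −0.72. DESeq2 called 8 lower and 0 higher, limma voom 9 lower and 1 higher, and at an unadjusted p under 0.05 there were 10 lower and 0 higher. Cyp4a12b, an arachidonic acid hydroxylase typical of male liver, was at 33.3, 83.5, 34.8, 91.9 and 46.2 CPM at 20 weeks and at 5.86, 7.83, 6.03, 9.01 and 16.0 CPM at 40 weeks (−2.71 ± 0.34, adjusted p = 9.46e-07). Mup3, a major urinary protein, went from 31.9, 37.4, 23.7, 30.8 and 36 CPM to 9.67, 16.0, 11.2, 7.02 and 11.5 CPM (−1.52 ± 0.22). Slco1a1, a transporter of bile acids and steroids, fell from 858, 1092, 673, 989 and 898 CPM to 369, 460.1, 304, 261 and 431 CPM (−1.31 ± 0.18, adjusted p = 3.54e-06). No 40-week animal reached the 20-week range in these 3 genes, which for Cyp4a12b follows from how the 12 lowest genes were picked. The P450 and Mup families among them hold close copies. In control females 3 of the 23 male-biased genes were called lower and 1 higher (median −0.43), where 302 of 14180 genes were lower. In HF/HS males 9 were called lower and 0 higher (median −0.73), where 1129 of all genes were lower. Between the diets 2 of the 23 differed, against 3.55% of all genes, and between the sexes 3, against 1.97%. Of 27 female-biased genes 3 fell in HF/HS females (11.1%, against 6.13% of all genes), Sult3a1 and Sult3a2 among them. A further 2 rose (7.41%, against 9.25%), Prom1 by 0.86 and Rtn4 by 0.42, the latter named because the count was small.

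Of 22 genes of bile acid synthesis and sterol transport edgeR called 5 lower and 0 higher, against 6.13% of all genes lower. DESeq2 called 5 lower and 0 higher, limma voom 7 lower and 4 higher, and at an unadjusted p under 0.05 there were 7 lower and 2 higher. Besides Slco1a1 these were Slc10a1, the sodium-taurocholate uptake carrier (−0.48 ± 0.10), the sterol exporters Abcg5 and Abcg8, and Nr0b2 (SHP), the bile acid responsive repressor. Abcg5 was at 182, 172, 166, 162 and 179 CPM at 20 weeks and at 92.4, 106, 93.0, 97.8 and 117 CPM at 40 weeks (−0.77 ± 0.17), and Abcg8 fell by 0.76 on the log2 scale (± 0.18). Nr0b2 (−1.19 ± 0.31, groups overlapping) lost its call without animal 421. Cyp7a1, which sets the rate of bile acid synthesis, varied from 60.0 to 601 CPM at 20 weeks and from 153 to 709 CPM at 40 weeks and was not called by edgeR (0.78, adjusted p = 0.358). It was called higher by limma voom, without animal 302, and without 302 and 473 together, with log2 changes of up to 2.39. In control females edgeR called 0 of the 22 genes, and their median was −0.21, beside −0.15 on HF/HS. There 6 were lower and 1 higher at an unadjusted p under 0.05. DESeq2 called 4 lower there, and limma voom 7 lower and 1 higher. In HF/HS males 4 were called lower and 2 higher. Between the diets 2 of the 22 had a higher change on HF/HS and 1 a lower one, against 3.55% of all genes. Of 24 genes of amino acid, urea and one-carbon metabolism 6 fell by small amounts in HF/HS females (25%, against 6.13% of all genes) and none rose. Hal, which degrades histidine, fell from 352, 359, 377, 396 and 357 CPM to 205, 291, 256, 258 and 243 CPM (−0.55 ± 0.12), Gls2 by 0.47 and Gnmt by 0.33 on the log2 scale. Of secreted liver proteins, Serpina1c fell from 814 ± 44.7 to 567 ± 72.2 CPM (SD, n = 5 each), Apoc3 by 0.28 and the clotting factor F7 by 0.39 on the log2 scale, while Alb changed by −0.10 (adjusted p = 0.45).

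The edgeR test called none of 25 cholesterol synthesis and uptake genes (median 0.03, with 1 at an unadjusted p under 0.05, 1 by DESeq2 and 1 by limma voom). Of 21 fatty acid and triglyceride synthesis genes Scd2 rose while Srebf1, Mlxipl and Agpat2 fell (14.3% lower, against 6.13% of all genes), and the median was −0.25. Mlxipl (ChREBP), the carbohydrate-responsive activator of lipogenesis, was at 582, 617, 678, 673 and 628 CPM at 20 weeks and at 369, 461, 418, 367 and 389.96 CPM at 40 weeks (−0.66 ± 0.11, adjusted p = 5.99e-05). Srebf1 (SREBP-1), the insulin-responsive activator, fell by 0.69 on the log2 scale (± 0.23, adjusted p = 0.0308), a call lost without animal 473 and without 421 and 422. Their targets Fasn (−0.38) and Scd1 (−0.11) and the lipid droplet genes Cidec (1.18, adjusted p = 0.112) and Cd36 (0.24) did not pass in edgeR, nor did Cyp4a14 (−0.47), Fgf21 (0.56), G6pc (−0.04) or Pck1 (−0.28). Limma voom called Cidec and Fgf21 higher, and edgeR on the 10 libraries alone called Cidec. None of 30 cell cycle genes was called by edgeR (1 unadjusted, 0 by DESeq2, 2 by limma voom), with the proliferation marker Mki67 at 0.36. The stress genes Cdkn1a (−0.58), Gdf15 (−0.06), Saa1 (0.74), Lcn2 (1.70, adjusted p = 0.129) and Hamp (−0.01) were not called by edgeR either, while limma voom and edgeR on the 10 libraries alone called Lcn2 higher. Cyp3a11, the main xenobiotic P450, rose by 1.43 with overlapping groups and lost its call in 4 of 10 fits with a library left out. Cyp2b10 fell by 1.57 on the log2 scale (adjusted p = 0.0345), but by 0.27 without animals 421 and 422, which held its highest values. Nnmt (−0.31) and Cyp17a1 (0.62) did not pass in edgeR, and Cyp17a1 did by limma voom and from the 10 libraries alone.

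With time on the control diet 584 genes were called (4.12%). That count was 128 with a covariate for the clock genes, which vary with the hour of collection, 206 from those 10 libraries alone and 1691 by limma voom, and 272 to 780 with 1 library left out. Among the 1311 genes that rose on HF/HS, 929 (70.9%) had a positive change in control females, with a median of 0.17 against 0.74, and 53 were called higher there. Among the 869 that fell, 551 (63.4%) were also negative in controls, with a median of −0.05 against −0.33, and 38 were called lower. These genes were picked by their HF/HS change, which enlarges the HF/HS medians, so the medians of the diets are not like measures. Over all genes tested the median control change was −0.0028. The change itself differed between the diets for 504 genes, 3.55% of those tested, 243 above and 261 below the control change. That set held 159 of the genes that rose on HF/HS (12.1%) and 158 of those that fell (18.2%). The test of the difference uses the HF/HS libraries by which these genes were picked, so shares above 3.55% follow in part from the choice.

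Scd2, Dab1, Sult3a1, Sult3a2 and Tiam2 differed between the diets under every alternative tried, and Osbpl3 under all but limma voom. Scd2 was at 10.5 CPM in control females at 20 weeks and 13.8 CPM at 40 weeks, so the HF/HS change exceeded the control change by 2.48 ± 0.53 on the log2 scale (adjusted p = 0.00641). Osbpl3 was at 1.65 and 1.54 CPM in controls, a difference of 3.83 ± 0.92 (adjusted p = 0.0147). Dab1, an adaptor of reelin signalling, went from 1.52 to 4.44 CPM on HF/HS and from 1.53 to 0.858 CPM in controls (2.37 ± 0.47, adjusted p = 0.00366). Sult3a1 was at 286 CPM in controls at 20 weeks and 188 CPM at 40 weeks, a difference of −4.31 ± 0.64 (adjusted p = 9.9e-05). For Sult3a2 the difference was −3.50 ± 0.46 (adjusted p = 1.61e-05). Tiam2, an activator of Rac, fell from 7.8 to 2.22 CPM on HF/HS and was at 8.85 and 15.1 CPM in controls (−2.55 ± 0.61). Ms4a7, a macrophage gene, had a difference of 2.24 ± 0.61 (adjusted p = 0.0305) that lost its call in 6 of 20 fits with a library left out.

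By list, macrophage genes also rose with time on the control diet. Of the 15 general macrophage genes 6 were called higher in control females, against 1.99% of all genes, with a median of 0.82. The test of the difference between the diets called none of the 15, with 0 at an unadjusted p under 0.05, 0 by DESeq2 and 0 by limma voom. The summed Kupffer level rose in the HF/HS animals from between 521 and 575 CPM to between 695 and 770 CPM, and the median Kupffer change was 0.51 on HF/HS and 0.79 on control. Of all genes tested 3.55% differed between the diets in either direction. Among lipid-associated genes 2 of 15 changed more on HF/HS, Spp1 (1.49 ± 0.38, adjusted p = 0.0196) and Lpl (1.57, adjusted p = 0.0263). Apoe changed the other way (−0.43 ± 0.09, adjusted p = 0.004). Gpnmb was at 0.141 and 0.24 CPM in controls, and its difference was 2.67 ± 1.90 (adjusted p = 0.46). In controls edgeR called none of the matrix genes (median 0.09, 1 unadjusted, 0 by DESeq2, 1 by limma voom), and 3 of 32 genes differed between the diets, against 3.55% of all genes. Col1a1 was at 4.03 and 3.52 CPM in controls, a difference of 2.09 with an adjusted p of 0.0526, and Col3a1 differed by 1.47 (adjusted p = 0.0479). Pdgfra went the other way in controls, from 22.1 to 17.8 CPM, and differed by 1.10 ± 0.24 (adjusted p = 0.00831). The edgeR test called no bile duct gene in controls (median −0.02, 0 unadjusted, 0 by DESeq2, 0 by limma voom). Between the diets 1 of 13 differed, which was Spp1, against 3.55% of all genes. That test called 0 of 22 chemokine and cytokine genes (3 unadjusted, 0 by DESeq2, 2 by limma voom). It called 0 of 14 dendritic cell genes (1 unadjusted, 0 by DESeq2, 0 by limma voom) and 1 of 9 monocyte genes. The control medians of these 3 lists were 0.20, 0.37 and 0.43. Neutrophil genes had a median of 1.12 on control and 1.19 on HF/HS, and 0 of 7 differed, also when unadjusted. Macrophage, stellate and bile duct markers moved with time in the same 10 animals, and their part in the matrix, cytokine and fetal gene changes was not tested.

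**Figure D4:**
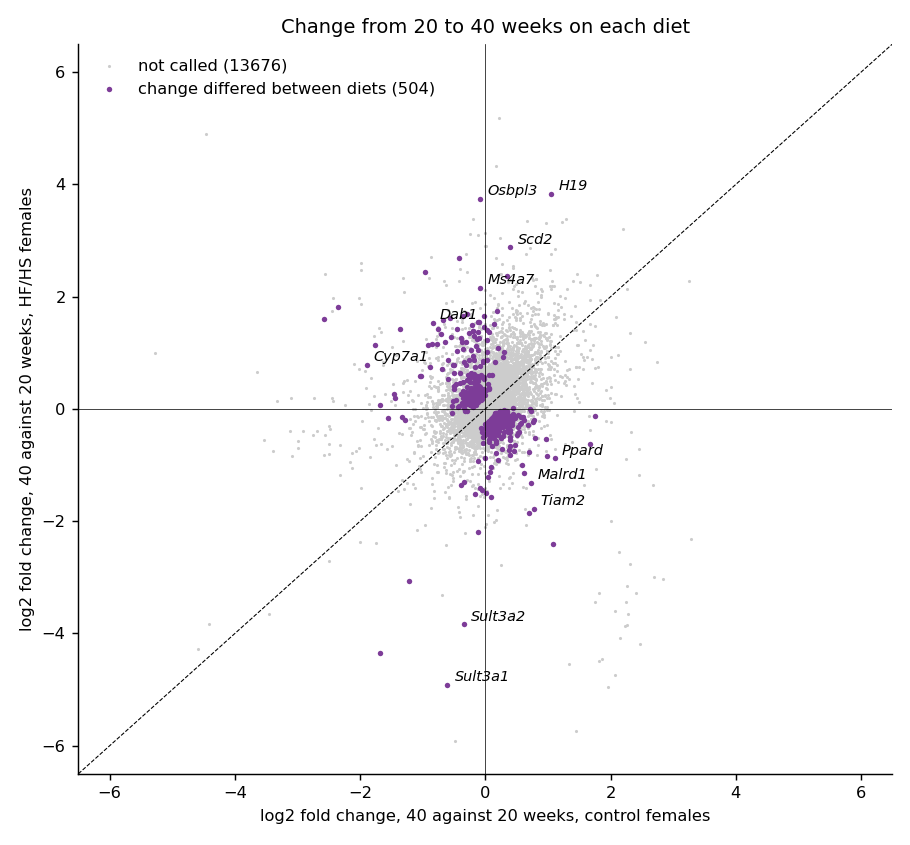
Log2 fold change at 40 against 20 weeks of each gene in control females (horizontal) and HF/HS females (vertical), with genes whose change differed between the diets in purple (504) and the named ones labelled. The dashed line marks equal change, 1 gene lies outside the axes, and Osbpl3, H19, Scd2, Sult3a1 and Sult3a2 lie far from it with small control changes except H19.

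**Figure D5:**
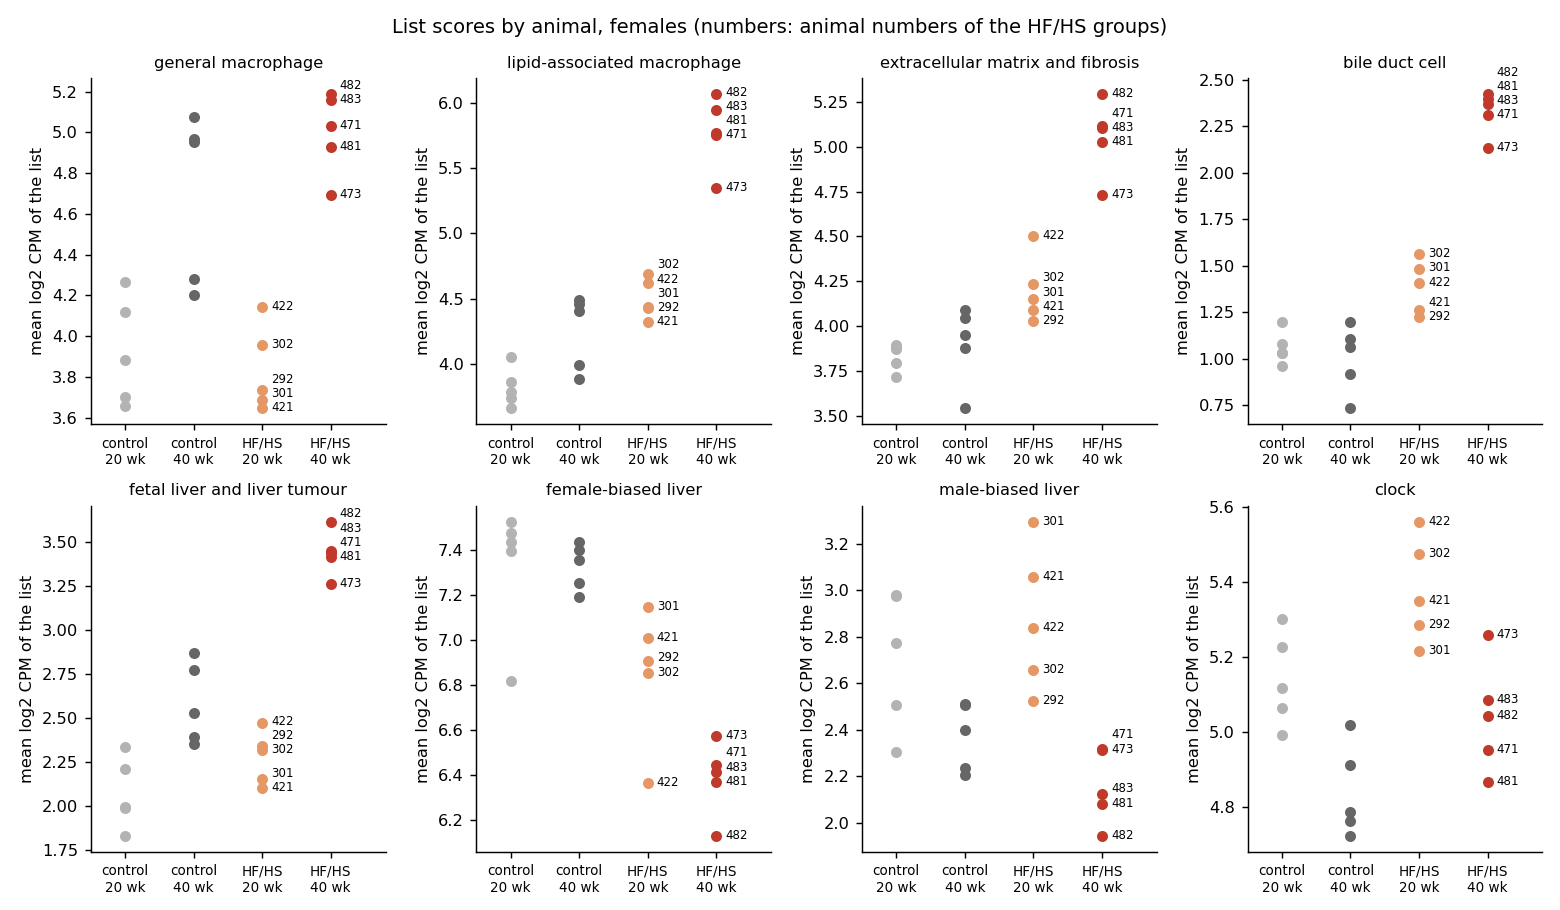
Mean log2 CPM of 8 gene lists in each of 20 females on the control or HF/HS diet at 20 and 40 weeks, with animal numbers beside the HF/HS points. All 5 40-week HF/HS animals lie above all 5 20-week HF/HS animals for the macrophage, matrix, bile duct and fetal lists, with animal 473 lowest of the 40-week HF/HS animals in the lipid-associated macrophage, matrix, bile duct and fetal lists.

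List scores, each the mean log2 CPM of a list in 1 animal, showed how far the 5 animals of a group spread. The lipid-associated macrophage score ran from 4.32 to 4.69 at 20 weeks and from 5.35 to 6.07 at 40 weeks, and the matrix score from 4.03 to 4.50 and from 4.73 to 5.29. The fetal score ran from 2.10 to 2.47 and from 3.26 to 3.62, and the bile duct score from 1.22 to 1.57 and from 2.13 to 2.42. Animal 473 had the lowest 40-week score in all 4. The male-biased score ran from 2.52 to 3.30 at 20 weeks and from 1.94 to 2.32 at 40 weeks. Of 20 clock genes Cry2 and Bhlhe41 were called lower (10%, against 6.13% of all genes), both calls lost when animal 302 was left out. DESeq2 called 2 lower, limma voom 3 lower, and 7 were lower at an unadjusted p under 0.05, with 0 higher in each. Of the 20 changes 0 were positive, and the median was −0.30, beside −0.0013 over all genes. The hour is not given here, and 96.1% of the 2180 calls were kept when a covariate for the clock genes (their leading principal component) was added. With that covariate the calls in control females went from 584 to 128, and the genes that differed between the sexes from 279 to 17.

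The change from 20 to 40 weeks on HF/HS differed between females and males for 279 genes (1.97%). Only 17 were called with the clock covariate, 13 of them shared with the 279, and 68 to 356 with 1 library left out. Of the lipid-associated macrophage list Gpnmb, Trem2 and Lpl rose more in females, and Apoe had a lower change in females (−0.30 ± 0.09, adjusted p = 0.0485). DESeq2 called 2 of the 15 genes higher and 1 lower, and limma voom 6 higher and 1 lower. Trem2 and Apoe lay close to the threshold, and the calls of Trem2, Lpl and Apoe between the sexes were not followed through the other alternatives. Gpnmb was at 32.8 CPM in HF/HS males at 20 weeks and 34.2 CPM at 40 weeks, so the female change exceeded the male by 3.28 ± 0.64 (adjusted p = 0.0039), a call held under every alternative tried. Trem2 was at 3.57 and 4.29 CPM in males (difference 2.02, adjusted p = 0.0499), Lpl at 105 and 103 CPM (difference 1.78, adjusted p = 0.0129) and Mmp12 at 34.3 and 39.8 CPM (1.92, adjusted p = 0.0719). The 40-week females, at 4.07 CPM for Trem2, 97.2 CPM for Lpl and 41.5 CPM for Mmp12, can be set beside those male levels, with no test between them. The median change of the 15 general macrophage genes was 0.40 in males against 1.23 in females, and the test between the sexes called none of them with edgeR, 6 at an unadjusted p under 0.05, 1 by DESeq2 and 4 by limma voom. Gdf3 differed by 3.08 ± 0.73 (adjusted p = 0.0173) and Serpina12 (vaspin), a secreted protease inhibitor, by 2.15 ± 0.54 (adjusted p = 0.027), with 8.41 and 27.4 CPM in females and 77.3 and 56.1 CPM in males. Both lost the call with the clock covariate, Gdf3 also without male 411, and Serpina12 also without female 302 or 482 or male 261 or 513. Of the bile duct list 8 of 13 genes were called higher in females and 11 of 13 in males, and of the matrix list 8 of 32 in males, where 9.46% of all genes were called higher. Cyp4a12b stayed at 288 and 261 CPM in males, and its change differed by −2.57 ± 0.45 (adjusted p = 0.00163). The clock genes Arntl (2.23 ± 0.32, adjusted p = 7.44e-05) and Npas2 (3.19 ± 0.57, adjusted p = 0.00163) also differed: they fell in males, from 36.2 to 6.71 CPM and from 19.6 to 1.72 CPM, and were not called in females (−0.20 and −0.30).

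By 60 weeks on HF/HS, in 5 further females, H19 was at 242 CPM and Mmp7 at 6.77 CPM in the mean, Lrtm2 at 8.63 CPM and Pdgfra at 42.6 CPM. For H19 and Mmp7 no test of 60 against 40 weeks is given here. Trem2 was at 5.57 CPM, Mmp12 at 35.2 CPM and Lpl at 127 CPM. These values share the 40-week group with the comparison above, and 60 against 40 weeks the test called Pdgfra (0.62 ± 0.17, adjusted p = 0.00991) and Lrtm2 (1.44 ± 0.42, adjusted p = 0.0157) but not Trem2 (0.46, adjusted p = 0.439), Mmp12 (−0.24, adjusted p = 0.75) or Lpl (0.38, adjusted p = 0.378).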

How the data were processed

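Total RNA of mouse liver was sequenced after removal of ribosomal RNA with a stranded kit from 500 ng RNA, per the labels' protocols. The authors deposited whole-number read counts per gene symbol for all 60 libraries, without normalization, and the submitters' processing notes name the build mm10. Aligner, counter, annotation and strand setting were not given in the sources used here, so overlapping and near-identical genes (Sult3a, Cyp, Mup, H2) are uncertain. Of 24982 entries 4778 had no count, and 26 symbols spoiled into dates held 0.201% of counts.

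One edgeR 4.0.16 quasi-likelihood fit (R 4.3.3, TMM scaling, filterByExpr with a minimum count of 10 and total of 15) gave each of 12 groups of 5 animals its own mean, with 48 residual degrees of freedom. Calls had a Benjamini-Hochberg adjusted p under 0.05 over 14180 genes. CPM are TMM-scaled, list scores use a prior count of 2, and values after ± are standard errors of log2 changes unless marked SD. Within each of the 2 HF/HS female groups no 2 animals agreed within sampling noise (lowest chi-square ratio to its degrees of freedom 6.361). P-values and standard errors rest on a spread between animals estimated over all 60 libraries, not over the 10 compared alone. Alternatives used DESeq2 1.42.0, limma 3.58.1 (voom), other scaling and filters, the clock component, the 10 or 20 libraries alone and libraries left out.

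Named genes are the 12 highest and 12 lowest called genes averaging 1 CPM or more, with groups that do not overlap and a settled symbol, up to 4 called members of each of 45 lists, 27 panel genes, and 6 genes on each side of both differences of change. Genes outside this rule (such as Apoe, Col5a2, Ecm1, Slc10a1, Rtn4, Krt19, Sox9, Clec4f, Timd4, Acta2 and Alb) were chosen after their values were seen. Some genes are not reported here. The members and lists were chosen with earlier results of these data known.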

Additional observations from a re-analysis of the deposited data

Results flagged for a closer look

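In 9 of 186 groups of 5 values, 1 animal stood apart from the other 4 by Dixon's ratio, and chance alone flags about 1 in 20. At 20 weeks animal 302 was low for the cholesterol synthesis score (5.51 against 6.33 for the next animal, mean log2 CPM), the fatty acid and triglyceride synthesis score (8.30 against 9.24), Fasn (10.6 against 12.1 log2 CPM) and Sqle (4.51 against 6.11 log2 CPM). Animal 292 was high for the NRF2 target score (5.74 against 5.52) and for Cd36 (9.34 against 9.03 log2 CPM). At 40 weeks animal 482 was high for the muscle score (1.43 against −0.52), and animal 473 was low for Osbpl3 (4.56 against 5.90 log2 CPM) and Timp1 (0.14 against 0.72 log2 CPM).

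The change from 20 to 40 weeks differed between HF/HS and control females by the test of the difference for the genes named by the rule. The log2 difference was positive for Osbpl3 (3.83), H19 (2.78), Cyp7a1 (2.68), Scd2 (2.48), Dab1 (2.37) and Ms4a7 (2.24). It was negative for Sult3a1 (−4.31), Sult3a2 (−3.50), Tiam2 (−2.55), Malrd1 (−2.04) and Ppard (−1.99). Sult3a1, Sult3a2, Scd2, Dab1 and Tiam2 kept their call under every alternative tried, and Osbpl3 under 26 of 27. The calls of Cyp7a1 (kept under 7 of 27), Malrd1 (11 of 27), H19 and Ppard (13 of 27 each) and Ms4a7 (21 of 27) were lost with single libraries left out. Animal 421 had 81.8 CPM of Ppard, and the other 20-week animals 12.4 to 24.9 CPM.

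Between HF/HS females and HF/HS males the log2 difference of the change was positive for Gpnmb (3.28), Npas2 (3.19), Gdf3 (3.08), Atp2b2 (2.31), Arntl (2.23) and Serpina12 (2.15). It was negative for Cyp2g1 (−3.33), Tcf24 (−2.85), Cyp4a12b (−2.57), Per3 (−2.28) and Xist (−2.17). Gpnmb, Arntl and Cyp4a12b kept their call under every alternative tried. Xist was at 4002 CPM in the 20-week females and 3402 CPM in the 40-week females, and at 0.153 and 0.601 CPM in the males, and its call was kept under 16 of 27 alternatives.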

How the results depend on the processing

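No paired analysis was possible because the animal numbers of the groups compared are all different. The 2180 calls of HF/HS females (1311 higher, 869 lower) became 3948 with limma voom (2196 and 1752), 1247 without animals 421 and 422 (656 higher) and 1002 without 292, 301 and 302 (509 and 493). With 1 library left out they ranged from 1365 to 2634, with 727 to 1264 higher and 638 to 1370 lower. Leaving out 482 gave 1365 calls, with 727 higher, without 301 or 421 there were 871 and 796 higher, and without 473 there were 1370 lower. The 504 genes that differed between diets became 300 without a filter and 1448 with voom, and ranged from 189 to 667 with 1 library left out, lowest without 482 (189), 421 (191), 452 (253), 483 (254) or 453 (321). The 279 that differed between sexes became 166 without a filter, 1088 with voom, 17 with the clock component, 536 with DESeq2 and 573 from the 20 libraries alone, and ranged from 68 (without male 261) to 356, with 87 to 181 without 301, 302, 471, 481, 482 or males 513, 521 and 523. Calls in control females (584) became 1691 with voom, 128 with the clock component, 893 with DESeq2 and 206 from their 10 libraries alone, and ranged from 272 (without 382) to 780, with 280 to 364 without 461, 462 or 463. Of 111 named genes called, 81 kept their call with each library left out and 50 under all alternatives. No named call changed direction. Depth limits genes with few counts at 20 weeks, such as Lrtm2 with 6 over 5 animals.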

Other observations

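The nuclear non-coding RNAs Neat1 and Malat1 fell in HF/HS females. Neat1, the scaffold of paraspeckles, changed by −1.60 ± 0.32 on the log2 scale (adjusted p = 0.000552) and Malat1, an abundant RNA of nuclear speckles, by −0.39 ± 0.08 (adjusted p = 0.00156). Both lie outside the rule for named genes and were chosen after their values were seen. Gpx3, a secreted selenium enzyme, rose from 6.69 ± 2.45 to 24.8 ± 7.09 CPM (SD, n = 5 each), and Gpx4, which reduces lipid peroxides in membranes, from 133, 117, 110.4, 123 and 118 CPM to 173, 147, 169.6, 199.5 and 156 CPM (log2 change 0.49 ± 0.11). Slc30a10, the manganese exporter, fell by 0.52 on the log2 scale in females (± 0.13), with overlapping groups. Egr2, an immediate early transcription factor, rose from 0.337, 0.35, 0.793, 0.436 and 1.69 CPM to 2.55, 2.43, 3.39, 3.44 and 4.48 CPM (2.13 ± 0.40). The cholesterol exporter Abcg1 rose from 20.9, 18.7, 26.1, 16.6 and 25.6 CPM to 38.8, 32.2, 36.5, 44.5 and 39.5 CPM (0.83 ± 0.18), with no overlap. Of 30 cytosolic ribosomal protein genes 8 were called higher by small amounts (26.7%, against 9.25% of all genes, median 0.11), and 0 were called without animal 302 or without animal 482.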
